A study of Drosophila melanogaster with 4 samples.

Results

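Ribosome biogenesis and RNA exosome genes were compared between *poly* mutant and wild-type larvae of *Drosophila melanogaster*. The set holds 38 genes that were chosen by name for their known roles, in small nucleolar ribonucleoproteins (snoRNPs), RNA polymerase I transcription, assembly of the ribosomal subunits and the exosome. This set and the other gene lists used below were chosen with earlier results of these data known. Their shares beside those of all genes are therefore description only. A named probe was found for 33 of the 38, out of 11908 named genes on the array, and each of the 33 had 1 probe. Of the 33, 22 belong to the nucleolus and to subunit assembly and 11 to the exosome. The 5 genes without a named probe here, *nop5*, *Polr1D*, *wcd*, *Ns3* and *Nmd3*, were not analysed.

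The mutant larvae were of the stock poly05137/TM6B, in which a P-element lies in the intron of *poly* (listed under its current symbol *Elp6*), a gene for a subunit of the Elongator complex, which modifies transfer RNAs. The wild-type was Canton S, and the labels give Canton S as the genetic background of both genotypes. Both were whole larvae, early in the third instar and kept on yeast paste. TM6B is a balancer chromosome, and the sources used here do not say if the larvae hybridised were selected as homozygotes. Each of 4 two-colour arrays compared 1 biological replicate of each genotype. The mutant RNA was labelled with Cy5 on replicates 1 and 2, and the dyes were swapped on replicates 3 and 4. Each value is the log2 ratio of *poly* to wild-type, so a negative value means a lower transcript level in the mutant.

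Ribosomes are made in the nucleolus. RNA polymerase I transcribes the precursor of the ribosomal RNAs there, snoRNPs modify and help to cut this precursor, and GTPases, helicases, kinases and export factors then build the small and the large subunit. The exosome, a ring of proteins with a cap and associated nucleases, trims precursor ends and degrades RNA. Target of rapamycin (TOR) signalling and Myc are known to raise the expression of many of these genes in fed, growing larvae.

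Before the members, the arrays themselves are described. The *Elp6* probe was lower on the 4 arrays, with log2 ratios of −1.49, −1.57, −1.69 and −1.79 on replicates 1 to 4 (mean −1.63 ± 0.13, SD, n = 4, adjusted p = 0.0109 from limma), although the place of this probe relative to the insertion is not known here. Across all probes the Pearson correlation between arrays ran from −0.183, between replicates 2 and 3, to 0.619, between replicates 1 and 2. Replicate 3 had the widest spread and the highest median (0.146, against −0.037 to 0.007 on the others). The table holds ratios only, so signal over background and the level of each transcript are not known here, and the labelled tissue could not be checked against marker levels.

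Of the 33 genes, 1 passed the test as lower in *poly* mutants (*NHP2*) and 0 passed as higher, at an adjusted p under 0.05 from limma over all 14569 probes. Of all named genes, 1.25% passed as lower and 1.42% as higher. At an unadjusted p under 0.05, 10 of the 33 (30.3%) were lower, against 8.92% of all genes, and 2 (*Non1* and *Csl4*, 6.06%) were higher, against 8.1%. The log2 ratio was below 0 on the 4 arrays for 11 of the 33 (33.3%), against 11.9% of all genes, and above 0 on the 4 arrays for 1 (*Csl4*), against 14.8%. The median log2 ratio was −0.229 over the 33 and 0.038 over all genes. On the single arrays the median of the 33 was −0.272, −0.417, −0.225 and −0.138 on replicates 1 to 4, where that of all genes was −0.007, −0.047, 0.157 and 0.012. The median of the 33 thus lay below that of all genes on each array, in both dye orientations. The RNA came from whole larvae, so fewer cells of a type and less RNA per cell cannot be told apart.

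**Figure D1:**
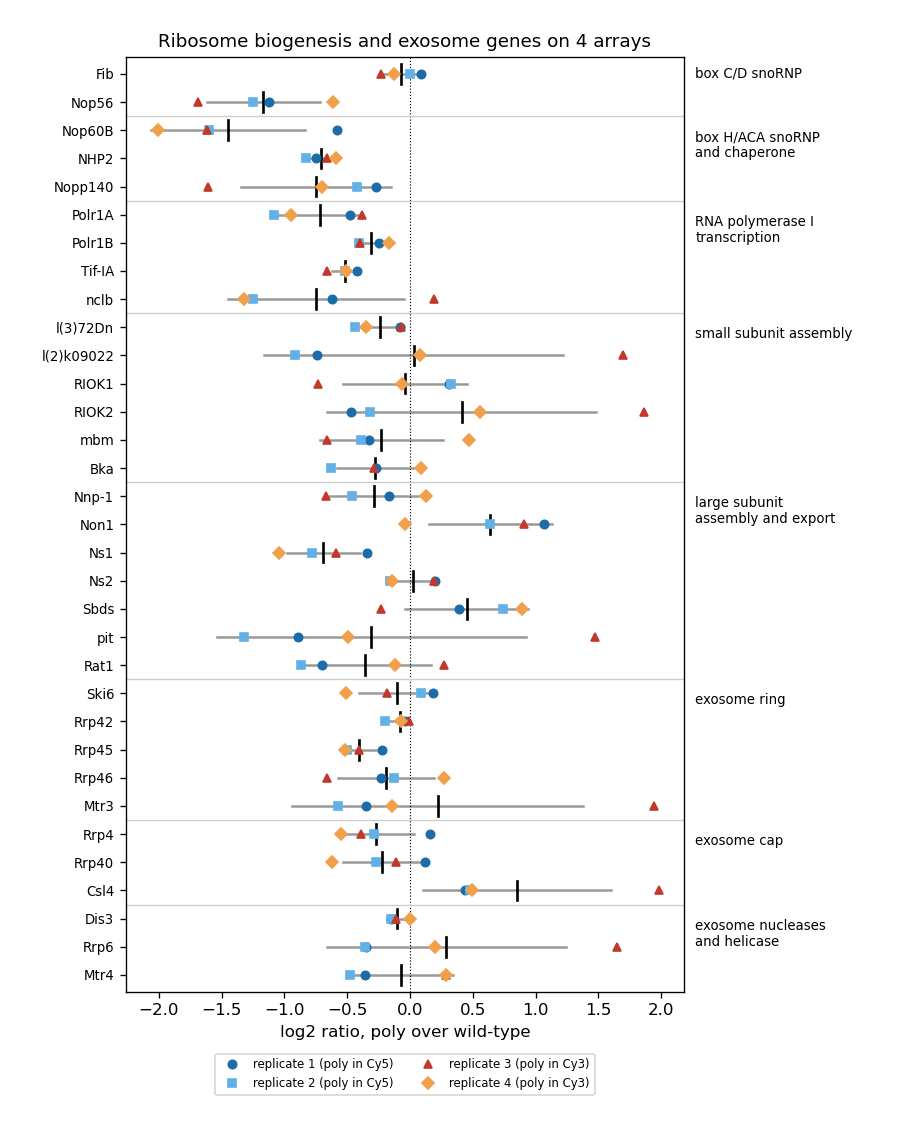
Log2 ratio of *poly* over wild-type (horizontal axis) for each of the 33 genes (rows, grouped by role) on the 4 arrays (coloured symbols), with the mean (black tick) and 1 SD either side (grey line, n = 4). *NHP2*, *Tif-IA* and *Polr1B* keep their 4 points close together and below 0, while *Mtr3*, *Csl4*, *pit*, *RIOK2*, *Rrp6* and *l(2)k09022* have replicate 3 above 1.

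The lowest ratios of the set lay among the proteins of the snoRNPs. Box H/ACA particles turn selected uridines of ribosomal RNA into pseudouridine, and their 4 core proteins are a pseudouridine synthase (*Nop60B*, the fly dyskerin), *NHP2*, *Gar1* and *Nop10*. *NHP2* had log2 ratios of −0.75, −0.83, −0.66 and −0.59 on replicates 1 to 4. The 4 values lay close together, and *NHP2* fell to a mean of −0.71 ± 0.10 (SD, n = 4, adjusted p = 0.0457 from limma). Its call was lost without replicate 3 (adjusted p = 0.0623), with a dye term (0.0639), with arrays scaled to the same spread (0.0573) and with a minimum ratio of 0.5 in size (1.0), while the mean stayed between −0.761 and −0.667 in the alternatives run. Without replicate 1, 2 or 4, 0 of the 11908 genes passed in either direction, so the adjusted p of single genes in those fits says nothing about them.

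*Nop60B* had the lowest mean of the 33, with ratios of −0.58, −1.60, −1.62 and −2.01 on replicates 1 to 4. Replicate 1 stood apart from the other 3 arrays, and the mean of −1.45 ± 0.61 (SD, n = 4) did not pass (adjusted p = 0.0683 from limma, 95% interval −2.11 to −0.79). *Gar1* and *Nop10* are not among the 33 and belong to a list of 30 further measured genes of ribosome biogenesis. *Gar1* had ratios of −0.73, −0.92, −1.17 and −0.66, and fell to a mean of −0.87 ± 0.23 (adjusted p = 0.0484 from limma). *Nop10* had ratios of −0.75, −0.73, −1.12 and −0.97, and fell to a mean of −0.89 ± 0.19 (adjusted p = 0.0371 from limma). Thus 3 of the 4 core proteins of the box H/ACA particle passed as lower, where 1.25% of all genes did, and the 4 were below 0 on each array, where 11.9% of all genes were. The calls of *Gar1* and *Nop10* were lost with a dye term (adjusted p = 0.084 and 0.053), with a minimum ratio (0.611 and 0.434) and with each array centred on its median (0.0651 and 0.0523). That of *Gar1* was also lost with a robust prior (0.0519) and without replicate 3 (0.0576), where that of *Nop10* was kept (0.0497), and without 1 replicate the means ran from −0.937 to −0.767 for *Gar1* and from −0.947 to −0.817 for *Nop10*. These 4 genes were brought together after their values were seen.

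Box C/D particles add methyl groups to ribosomal RNA. *Fib*, the methyltransferase fibrillarin, had log2 ratios of 0.09, 0.00, −0.23 and −0.13 on replicates 1 to 4, on both sides of 0, with a mean of −0.07 ± 0.14 (SD, n = 4) and a 95% interval of −0.35 to 0.21. *Nop56*, a core scaffold protein of the same particle, had ratios of −1.12, −1.25, −1.69 and −0.61, each of them below the lowest value of *Fib*. Its mean of −1.17 ± 0.45 did not pass (adjusted p = 0.0625 from limma). *hoip*, from the further list, encodes a protein shared by box C/D particles and the spliceosome, and had a mean of −0.82 ± 0.32 (adjusted p = 0.0782 from limma). *Nopp140*, a chaperone of both kinds of particle, had ratios of −0.27, −0.42, −1.61 and −0.70. Replicate 3 was much the lowest there, and the mean of −0.75 ± 0.60 did not pass (adjusted p = 0.24 from limma) and was −0.465 without it.

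**Figure D2:**
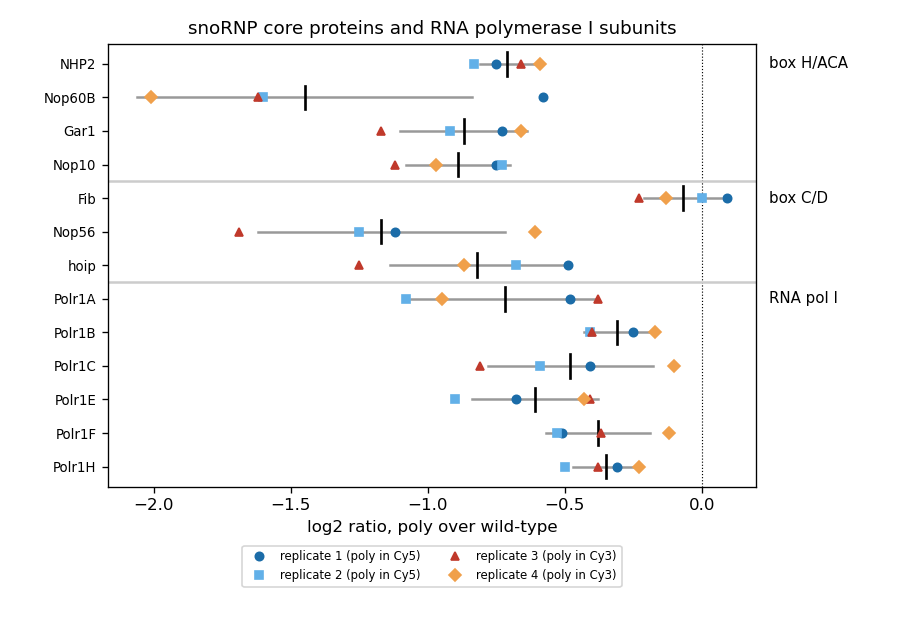
Log2 ratio of *poly* over wild-type (horizontal axis) for the measured core proteins of the box H/ACA and box C/D particles and 6 subunits of RNA polymerase I (rows), with 1 symbol per array, the mean (black tick) and 1 SD either side (grey line, n = 4). All rows but *Fib* have their 4 points below 0.

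The 4 measured members of RNA polymerase I transcription had means below 0. *Polr1A*, the largest subunit, had log2 ratios of −0.48, −1.08, −0.38 and −0.95 on replicates 1 to 4, and a mean of −0.72 ± 0.34 (SD, n = 4) that did not pass (adjusted p = 0.111 from limma). *Polr1B*, the second-largest subunit, had ratios of −0.25, −0.41, −0.40 and −0.17, with a mean of −0.31 ± 0.12 (adjusted p = 0.243). Both were below 0 on each of the 4 arrays.

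*Tif-IA* encodes the factor that brings RNA polymerase I to its promoter in growing cells. It had ratios of −0.42, −0.52, −0.66 and −0.51, a mean of −0.52 ± 0.10 (SD, n = 4) with a 95% interval of −0.78 to −0.27, and did not pass (adjusted p = 0.0793 from limma). *nclb*, the fly PWP1, is known as a nucleolar regulator of ribosomal gene expression. Its ratios were −0.62, −1.25 and −1.32 on replicates 1, 2 and 4 but 0.19 on replicate 3, which gave a mean of −0.75 ± 0.70 (adjusted p = 0.305). Of the further list, the subunits *Polr1C* (mean −0.48), *Polr1E* (−0.61), *Polr1F* (−0.38) and *Polr1H* (−0.35) were also below 0 on the 4 arrays and did not pass, and were grouped with *Polr1A* and *Polr1B* after their values were seen. The polymerase I factors of that list, *udd* (mean −0.19 ± 0.30) and *TAF1B* (−0.07 ± 0.34), had ratios on both sides of 0. Together, the 6 measured subunits listed with polymerase I had means from −0.723 to −0.309, with a median of −0.43. Subunits that it shares with RNA polymerase II were listed with that enzyme and not counted. Among these, *Polr2E* (mean −0.25) was below 0 on the 4 arrays, and *Polr2H* (−0.08) and *Polr2L* (−0.27) had ratios on both sides of 0. The list for RNA polymerase III, which transcribes 5S ribosomal RNA and transfer RNAs, held 9 measured genes, for *Polr3* subunits and the factor *Brf*. Subunits listed with another polymerase, such as *Polr1C*, were not counted in it. The median of the 9 was −0.057, 0 were below 0 on the 4 arrays (11.9% of all genes) and 0 passed, also at an unadjusted p under 0.05. Without replicate 3 their median was −0.177, and 4 of the 9 were below 0 on the other arrays, against 21.6% of all genes. No test of the difference between these gene groups was made.

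Of the genes placed with small subunit assembly, several changed sign between arrays. *l(3)72Dn* had log2 ratios of −0.08, −0.44, −0.07 and −0.35 on replicates 1 to 4 (mean −0.24 ± 0.19, SD, n = 4) and was the one gene of the 6 that was lower on each array. *l(2)k09022*, the homologue of a protein of the early small subunit precursor in yeast, had ratios of −0.74, −0.92, 1.70 and 0.08. Its mean of 0.03 ± 1.19 had a 95% interval that ran from −1.19 to 1.25. *RIOK2* encodes an atypical kinase of late maturation, and had ratios of −0.47, −0.32, 1.86 and 0.56, with a mean of 0.41 ± 1.07. In both genes the 2 arrays with *poly* in Cy5 were below 0 and the 2 with *poly* in Cy3 were above it. *RIOK1*, its relative, went the other way, with 0.31, 0.33, −0.73 and −0.06 and a mean of −0.04 ± 0.49. *mbm*, a nucleolar protein of neuroblasts, had a mean of −0.23 ± 0.49, and *Bka* one of −0.28 ± 0.30. None of the 6 passed the limma test, and 0 had an unadjusted p under 0.05.

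Among the 7 measured genes of large subunit assembly and related processing, *Ns1* was the lowest. *Ns1*, a nucleostemin GTPase, had log2 ratios of −0.34, −0.78, −0.59 and −1.04 on replicates 1 to 4. Each array lay below 0, and the mean of −0.69 ± 0.29 (SD, n = 4) did not pass (adjusted p = 0.1 from limma). *Ns2*, a related GTPase of the nucleolus, had ratios of 0.20, −0.16, 0.19 and −0.14, with a mean of 0.02 ± 0.20 and a 95% interval of −0.29 to 0.34.

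*Non1*, a further nucleolar GTPase, had ratios of 1.07, 0.64, 0.91 and −0.04 on replicates 1 to 4. It was above 0 on 3 arrays and near 0 on replicate 4, and the mean of 0.64 ± 0.49 (SD, n = 4), the second highest of the 33, did not pass (adjusted p = 0.233 from limma). *Sbds*, whose product helps to release the anti-association factor eIF6 from the new large subunit, had ratios of 0.39, 0.74, −0.23 and 0.89, with a mean of 0.45 ± 0.49 (adjusted p = 0.422). *pit*, a DEAD-box helicase gene required for larval growth, had ratios of −0.89, −1.32, 1.47 and −0.49. Replicate 3 alone was above 0, and the mean of −0.31 ± 1.23 on 4 arrays became −0.898 without it (adjusted p = 0.103). The other 2 genes, *Nnp-1* (−0.29 ± 0.35) and the exonuclease gene *Rat1* (−0.36 ± 0.53), were lower on 3 of 4 arrays.

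The exosome genes had ratios nearer to 0. The 11 genes had a median log2 ratio of −0.101, against −0.3 for the 22 nucleolar and assembly genes, and none passed the limma test. At an unadjusted p under 0.05, 1 was lower and 1 was higher (9.09% each), near the 8.92% and 8.1% of all genes. On replicates 1 to 4 the median of the 11 was −0.154, −0.271, −0.106 and −0.069, and that of the 22 was −0.338, −0.489, −0.335 and −0.154. The median of the exosome genes was the nearer to 0 on each array, a difference that was not tested. Within the 22, the 6 measured genes of small subunit assembly had a median of −0.133, so a median near 0 was not particular to the exosome. Without replicate 3 the median of the 11 was −0.17 and that of the 22 was −0.378. Without replicate 2 these medians were −0.086 and −0.179.

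Of the ring, which is built from proteins that resemble the ribonuclease PH of bacteria, *Rrp45* had ratios of −0.22, −0.50, −0.41 and −0.52 on replicates 1 to 4. It was lower on each array, with a mean of −0.41 ± 0.14 (SD, n = 4), and did not pass (adjusted p = 0.152 from limma). *Rrp42* was also below 0 on each array, but by a mean of 0.08 only, with a 95% interval of −0.33 to 0.17. *Ski6* (−0.10 ± 0.31) and *Rrp46* (−0.19 ± 0.38) had values on both sides of 0. *Mtr3* had ratios of −0.35, −0.57 and −0.14 on replicates 1, 2 and 4 and 1.94 on replicate 3, so its mean of 0.22 became −0.353 without that array.

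The cap proteins hold RNA above the ring. *Csl4* had log2 ratios of 0.44, 0.48, 1.98 and 0.49 on replicates 1 to 4, the only gene of the 33 above 0 on each array and the one with the highest mean, 0.85 ± 0.75 (SD, n = 4). It did not pass (adjusted p = 0.278 from limma), and its mean was 0.469 without replicate 3. The other cap genes lay on the other side, with ratios of 0.16, −0.29, −0.39 and −0.55 for *Rrp4* (mean −0.27 ± 0.30) and 0.12, −0.27, −0.11 and −0.62 for *Rrp40* (mean −0.22 ± 0.31). In both, replicate 1 was the one array above 0.

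Of the enzymes, *Dis3*, the catalytic nuclease, had ratios of −0.15, −0.15, −0.11 and 0.00 on replicates 1 to 4. With a mean of −0.10 ± 0.07 (SD, n = 4) and a 95% interval of −0.35 to 0.15 it was among the most even genes of the set. *Rrp6*, the nuclear exonuclease, had ratios of −0.35, −0.36, 1.65 and 0.20, and *Mtr4*, the helicase that feeds RNA into the nuclear exosome, had −0.36, −0.48, 0.29 and 0.29. Both were below 0 on the arrays with *poly* in Cy5 and above 0 on those with *poly* in Cy3, with means of 0.29 ± 0.95 and −0.07 ± 0.41.

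**Figure D3:**
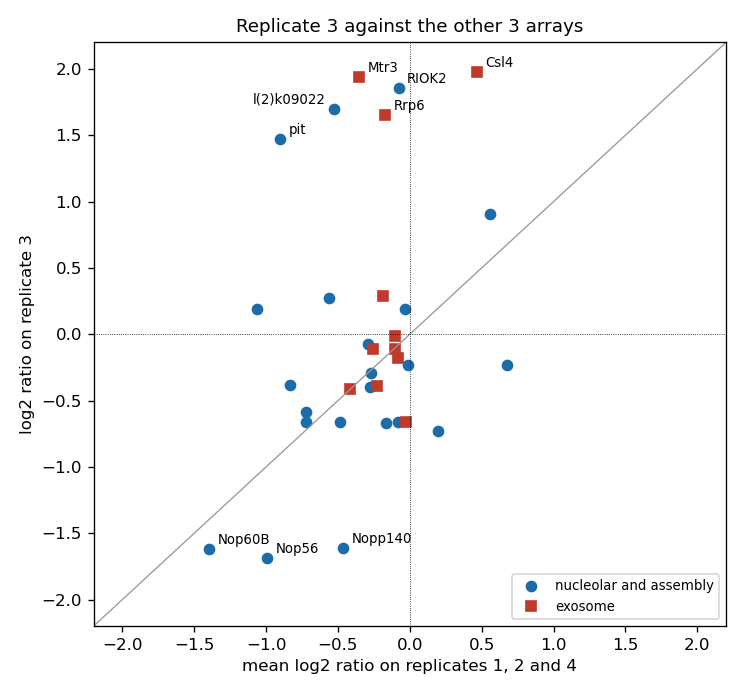
Log2 ratio of *poly* over wild-type on replicate 3 (vertical axis) against the mean log2 ratio on replicates 1, 2 and 4 (horizontal axis) for the 33 genes, with blue circles for nucleolar and assembly genes and red squares for exosome genes. The grey line marks equal values, and named genes lie above 1 or below −1 on replicate 3.

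Replicate 3 set many of the wide spreads. On it, 6 of the 33 genes had a ratio above 1, against 1, 0 and 0 genes on replicates 1, 2 and 4, and 3 had one below −1, against 1, 5 and 3. The shares of all genes beyond these limits were not counted. Over all probes the median absolute deviation was 0.35 on replicate 3, against 0.2, 0.248 and 0.257 on replicates 1, 2 and 4. Of all genes, 15.9% had the sign of replicate 3 against that of the other 3 arrays, as had 5 of the 33 genes. On replicate 4 this was so for 10.9% of all genes and 6 of the 33. Without replicate 3, the median of the 33 genes was −0.257 in place of −0.229, and 15 of them (45.5%) were below 0 on the remaining arrays, against 21.6% of all genes, while 2 were above 0 on them, against 21.0%. The median of all genes was then −0.033 in place of 0.038, so the 33 genes lay below it with and without that array.

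In the further list of 30 measured genes of ribosome biogenesis, the ratios were also low. Of the 30, 2 passed as lower (*Gar1* and *Nop10*, 6.67%, against 1.25% of all genes) and 0 as higher. At an unadjusted p under 0.05, 15 were lower (50.0%, against 8.92%) and 0 higher. On the 4 arrays, 15 of the 30 were below 0 (50.0%, against 11.9% of all genes) and 0 above (against 14.8%). The median of the 30 was −0.347, and −0.429, −0.672, −0.256 and −0.27 on replicates 1 to 4. With the smallest p after *Nop10* and *Gar1* came CG6724 (mean −0.53 ± 0.07, SD, n = 4, adjusted p = 0.074 from limma), *hoip*, *vito*, a gene of a nucleolar protein (−0.57 ± 0.16, adjusted p = 0.0853), and *Polr1E*. The ratios of CG6724 lay between −0.61 and −0.45, the narrowest range of these.

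**Figure D4:**
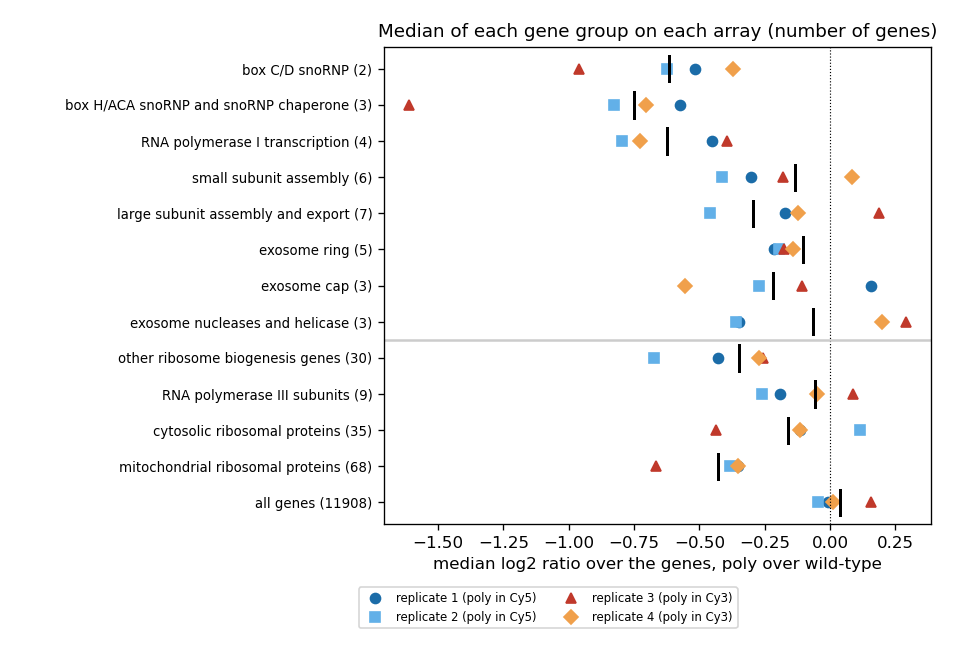
Median log2 ratio of *poly* over wild-type (horizontal axis) over the genes of each group (rows, number of genes in brackets) on each of the 4 arrays (coloured symbols), with the median of the gene means as a black tick. The groups above the grey line are the 33 genes by role. The snoRNP and RNA polymerase I groups have their 4 points below −0.3, while those of all genes lie between −0.047 and 0.157.

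Ribosomal proteins were set beside these genes. The 68 genes of mitochondrial ribosomal proteins had a median log2 ratio of −0.429, and 35 of them (51.5%) were below 0 on the 4 arrays. The 35 genes of cytosolic ribosomal proteins had a median of −0.159, and 4 (11.4%) were below 0 on the 4 arrays, near the 11.9% of all genes. The mean was below 0 in 30 of the 35, against 5110 of all 11908 genes. At an unadjusted p under 0.05, 5 were lower (14.3%, against 8.92%) and 0 higher (against 8.1%), and 1 passed as lower (2.86%, against 1.25%). The 35 are those with a named probe and include both copies of some duplicated genes, such as *RpL10Aa* and *RpL10Ab*. The cytosolic median was −0.437 on replicate 3 and 0.116 on replicate 2, and −0.041 without replicate 3. Of the 22 nucleolar and assembly genes, 9 (40.9%) were below 0 on the 4 arrays, a share that lies between those of these groups. The difference between groups was not tested.

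Markers of larval tissues were looked at beside these genes. Of 6 measured neuroblast markers and 7 of imaginal discs, 0 passed the limma test. At an unadjusted p under 0.05, 0 were lower and 0 higher, against 8.92% and 8.1% of all genes. On the 4 arrays 0 were below 0, against 11.9% of all genes. With so few markers, counts of 0 can arise at these shares. The median was 0.043 over the neuroblast markers and 0.185 over the disc markers. On single arrays it ran from −0.267 to 1.17 and from −0.249 to 0.324, with the highest value on replicate 3 in both. Without replicate 3 the medians were −0.126 and −0.152. On replicates 1, 2 and 4, 3 of the 6 and 3 of the 7 were below 0, against 21.6% of all genes. Above 0 on these arrays were 0 and 1, against 21.0%. Of 4 neuron markers 0 passed (1 lower at an unadjusted p under 0.05), with a median of −0.049. The part of these tissues in the ratios of the 33 genes was not tested.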

How the data were processed

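RNA of *poly* mutant and wild-type larvae was compared on 4 two-colour long-oligonucleotide arrays. Spots were measured in Dapple and normalized in vsn by the authors, who deposited the result as log2 ratios, 1 column per array, of 14569 probes. No source used here describes the background correction or spot filters. No column was turned, so that each is *poly* over wild-type: the direction was taken from the dyes, the *poly* probe, lower in each column, and the sign the study gives to its own genes. Probes were named through the platform annotation, updated to RefSeq gene symbols: 12658 had 1 symbol (12012 updated by gene identifier, 107 by accession), 96 had several and 1815 are unnamed here. Each probe was tested against 0 with limma 3.58.1 (lmFit and eBayes, two-sided, Benjamini–Hochberg adjustment over all probes, threshold 0.05, 4.97 degrees of freedom) in R 4.3.3. Intervals are 95% intervals from that fit. A gene was counted where at least 1 of its probes passed and no other passed in the opposite direction. Medians are over the means of each gene's probes. The p-values rest on the spread between the 4 replicates, which includes the dye swap in the main fit. In limma this spread is drawn towards that of all probes, which gives 1.97 of the 4.97 degrees of freedom. Precision is limited by the number of arrays.

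The members and lists were chosen with earlier results of these data known. The values of each member are given. Of the further list, from which names that stood for other genes or were in doubt were taken out before its values were seen, those that passed and those with the smallest p are named. Entered names that matched no gene symbol or single synonym, such as *Mpp10*, *Imp3* and *Nob1* of the further list, were left out. The fit was also run on simulated ratios, drawn independently for each array, without a dye effect or a wider replicate 3. That run cannot show how the fit behaves where arrays differ in these ways. Alternatives were a dye term, centring, scaling, averaged probes, array weights, a robust prior, a minimum ratio of 0.5 and each replicate left out. No sequence is shown and no promoter motif was counted, since no sequence table was used here. Python 3.11.15, pandas 2.3.3, scipy 1.17.1 and matplotlib 3.10.9 were used.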

Additional observations from a re-analysis of the deposited data

Results flagged for a closer look

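In 3 of 64 genes whose 4 arrays were compared (the 33 genes, the 30 further genes of ribosome biogenesis and *Elp6*), 1 array lay far from the other 3 by Dixon's criterion, which chance meets in about 1 in 20 groups. *Csl4* had 1.98 on replicate 3, where the other arrays lay between 0.44 and 0.49. *Mtr3* had 1.94 on replicate 3, where the other arrays were below 0. *eIF6*, of the further list, had −1.88 on replicate 2, where the other arrays lay between 0.25 and 0.42.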

How the results depend on the processing

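The count of members lower in limma's test was 1 (*NHP2*) and stayed 1 with each array centred, with averaged probes and with a robust prior. It was 0 with a dye term, with scaled arrays and with a minimum ratio of 0.5 (10, 10 and 3 lower at an unadjusted p under 0.05). Of all genes, 65, 134 and 19 passed as lower in these fits, against 149 in the main fit. The count of members was 0 in each fit without 1 replicate (7 to 12 lower at an unadjusted p). Without replicate 3, 151 of all genes passed as lower, while the count of members was 0. Without replicate 1, 2 or 4, fits with as many arrays, 0 of all genes passed, so the count of 0 there says nothing about the members. It was 7 with array weights (*NHP2*, *Nop56*, *Nop60B*, *Ns1*, *Polr1A*, *Tif-IA* and *nclb*), a fit that leans on replicates 1 and 2 (weights 2.1 and 2.44, against 0.289 and 0.675), both with *poly* in Cy5, and in which 639 of all genes passed as lower, against 149. The count of the further list was 2, and 0 with a dye term, with centred arrays and with a minimum ratio, 1 with a robust prior, 11 with array weights and 0 to 1 without 1 replicate. The median of the 33 genes lay between −0.289 and −0.171 in the alternatives run on it, that of the 22 between −0.424 and −0.179 and that of the 11 between −0.17 and −0.086. The mean changed sign with array weights for *Fib* (0.00631), *Mtr3* (−0.3), *Ns2* (−0.00049), *RIOK1* (0.217), *RIOK2* (−0.152), *Rrp6* (−0.181), *Ski6* (0.0362) and *l(2)k09022* (−0.591), with scaled arrays for *RIOK1* (0.0176) and *l(2)k09022* (−0.166), and with centred arrays for *Ns2* (−0.00451). Without 1 replicate the mean ran across 0 for *Mtr3* (−0.353 to 0.483), *Mtr4* (−0.187 to 0.0713), *Ns2* (−0.0359 to 0.0845), *RIOK1* (−0.16 to 0.192), *RIOK2* (−0.0738 to 0.703), *Rrp6* (−0.17 to 0.501), *Ski6* (−0.198 to 0.0306), *l(2)k09022* (−0.527 to 0.346) and *pit* (−0.898 to 0.0305). None of these genes passed. The cause was not tested. Signal over background is not known here.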

Other observations

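Genes of RNA decay and of DNA replication were also measured. Of 21 genes of exosome cofactors and cytoplasmic RNA decay, 0 passed limma's test, with a median log2 ratio of −0.081. At an unadjusted p under 0.05, 4 of the 21 were lower and 0 higher, against 8.92% and 8.1% of all genes. *Pop2*, a deadenylase, had a mean of −0.56 ± 0.36 (SD, n = 4, adjusted p = 0.199 from limma), and *Not3*, of the same complex, one of −0.28 ± 0.04 (adjusted p = 0.242), with 4 of 4 arrays below 0 in both, while *Not1* (0.33 ± 0.60) and *Rga* (−0.18 ± 0.18), also of that complex, had ratios on both sides of 0. Of 7 genes of DNA replication 0 passed (3 lower at an unadjusted p under 0.05, against 8.92% of all genes), with a median of −0.313, and 5 of the 7 were below 0 on the 4 arrays, against 11.9% of all genes. *Mcm5*, of the replicative helicase, had a mean of −0.35 ± 0.12 (adjusted p = 0.193), and *RnrL*, the large subunit of ribonucleotide reductase, one of −0.34 ± 0.13 (adjusted p = 0.21). The genes named here were chosen after their values were seen.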
